A study of Homo sapiens with 4 samples.

Results

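Cells take up glucose, lactate and most amino acids through carrier proteins of the solute carrier (SLC) families, and the genes of 5 of these families, with SLC3A2, were compared between AXL-depleted and control MDA-MB-231 cells. The members were the protein-coding genes of the table whose symbols begin with SLC1A, SLC2A, SLC7A, SLC16A or SLC38A followed by a number, plus SLC3A2, the heavy chain shared by several SLC7A carriers. Where a symbol was listed more than once, the row with the highest mean was kept, which left 59 genes from 62 rows, out of 63677 rows in all. There were 14 SLC2A, 14 SLC16A, 7 SLC1A, 13 SLC7A and 10 SLC38A genes, and SLC3A2.

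MDA-MB-231 is an established human line of triple-negative breast cancer. It expresses the receptor tyrosine kinase AXL. Cells were transfected with Lipofectamine and either a control siRNA (siCt, 2 libraries) or a pool of siRNAs directed at AXL (siAXL, labelled siAxl, 2 libraries), and their total RNA was sequenced. The time between transfection and lysis is not given in the sources used here, all cells come from 1 line, and only 1 siRNA pool was used. Nothing in the labels says whether the 2 libraries of a group came from separate cultures, so that p-values measure the spread between these libraries, which may be technical.

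The reads assigned to genes summed to between 39574387 and 44585773 per library. AXL itself was at 29189 and 30617 normalized counts in siCt and at 8658 and 7141 in siAXL, which is 26.4% of the siCt mean. A normalized count is the number of reads of a gene divided by a scaling factor of its library. VIM (86751 to 99296 normalized counts), CD44 (33968 to 36518) and KRT18 (10076 to 12117) were detected in every library and the hormone receptor genes ESR1 and PGR were at 3.25 or less. ERBB2 (2949 to 3680.0) and EPCAM (565 to 771) were detected, and SPARC was low (18.2 to 55.4). Markers of other cell types were at or near 0, with PECAM1 at 0, PTPRC at 16.7 or less and ALB at 10.7 or less. CDH1 was low and fell further in siAXL, from 90.1 and 94.3 to 36.9 and 22.6 (log2 fold change -1.64, limma adjusted p = 0.00847), and ERBB2 rose by 0.26 (adjusted p = 0.0258). Their part in the results on transporters was not tested. In bulk RNA, fewer cells that express a gene and less of its RNA per cell cannot be told apart.

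The SLC2A genes encode the GLUT proteins, which let hexoses cross membranes down their gradient. The SLC16A genes encode the MCT family, whose best known members move lactate together with a proton. Glycolytic tumour cells import glucose mainly through GLUT1 (SLC2A1) and export lactate mainly through MCT4 (SLC16A3). The SLC1A genes encode carriers of acidic and neutral amino acids, including the glutamine exchanger ASCT2 (SLC1A5). The SLC7A genes encode cationic amino acid transporters and the light chains that pair with a heavy chain such as SLC3A2. Through this pairing, LAT1 (SLC7A5) exchanges glutamine for leucine and other essential amino acids, and xCT (SLC7A11) imports cystine in exchange for glutamate. The SLC38A genes encode the SNAT proteins, which load cells or empty lysosomes of glutamine and other small neutral amino acids.

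Of the 59 genes, 42 had enough reads to be tested and 17 did not. Of these 17, 7 (SLC16A8, SLC2A2, SLC2A7, SLC38A8, SLC38A11, SLC7A3 and SLC7A13) had 0 reads in every library, which allows up to 0.0673 to 0.0758 CPM (reads scaled to library size), at 3 reads per library and for counting error only. The other 10 had at most 8.63 normalized counts in any library. Levels of different genes were compared as RPKM, reads scaled to library size and to the length of all annotated exons of a gene, merged, in GENCODE release 29. This length was 4724 bases for SLC2A1, 6602 for SLC38A2 and 8995 for SLC16A3. The transcripts that these cells make may be shorter, so that the ranks and family shares below depend on this choice of length. On this scale SLC2A1 was highest, at a mean of 150 RPKM over the 4 libraries (147 to 153), followed by SLC38A2 at 137 (129 to 151), and the ranges of these genes overlapped. SLC16A3 came next at 61.6 (59.3 to 64.9), with no overlap with its neighbours. SLC7A5 (43.8), SLC1A5 (42.5) and SLC38A1 (37.8) followed, and the range of SLC1A5 overlapped those of both others. SLC7A1 (25.7) and SLC3A2 (22.4), whose ranges overlapped each other, lay below them. All other members had a mean of 11.6 RPKM or less. SLC2A1 made up 86.1% to 88.6% of the summed RPKM of the SLC2A genes, SLC16A3 81.3% to 83.4% of the SLC16A sum, SLC1A5 88.6% to 92.4% of the SLC1A sum, and SLC38A2 67.1% to 70.8% of the SLC38A sum. SLC16A1, which encodes the widely expressed MCT1, was nearly silent, with 106 reads over the 4 libraries and 0.110% to 0.195% of the SLC16A sum.

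**Figure D1:**
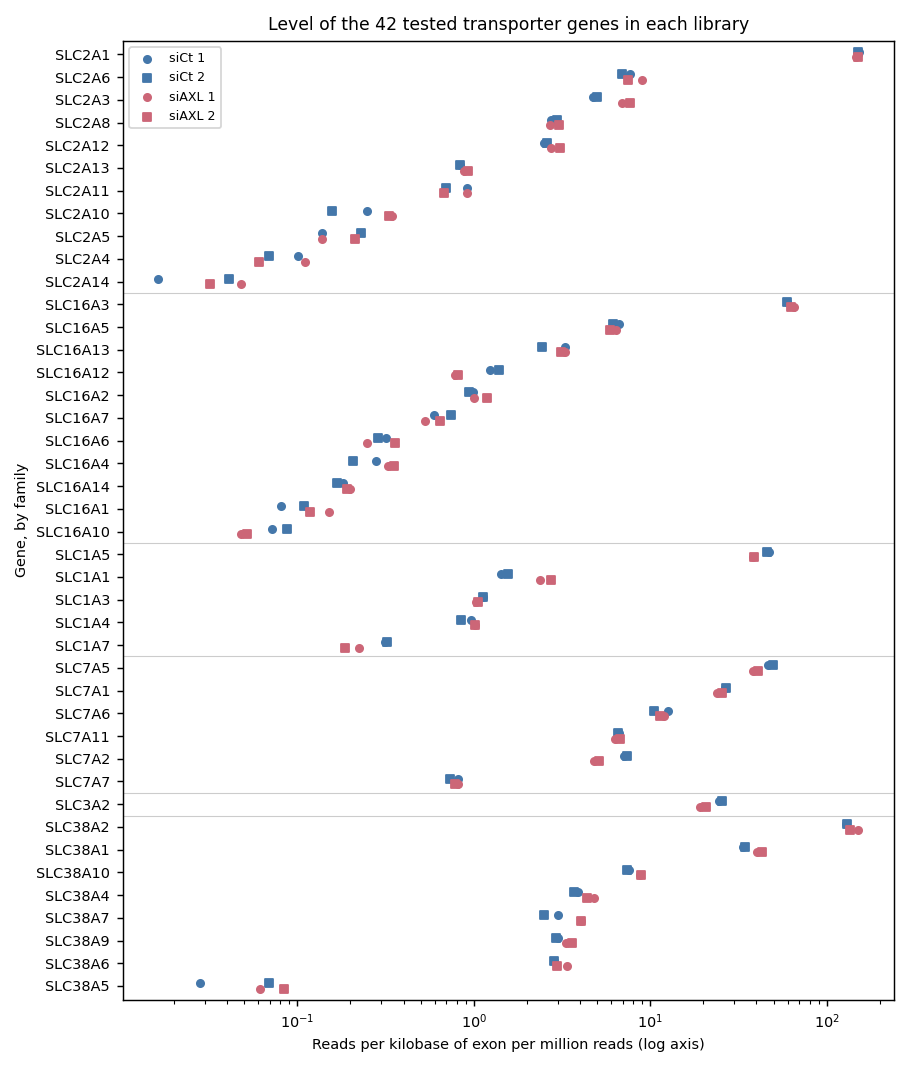
Level of each tested transporter gene (RPKM, log axis) in the 2 siCt libraries (blue) and the 2 siAXL libraries (red), by family; circles are replicate 1 and squares replicate 2. SLC2A1, SLC38A2 and SLC16A3 sit highest in all 4 libraries, and SLC16A1 lies far below SLC16A3.

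Of the 42 genes tested, 6 rose and 5 fell in siAXL at a limma adjusted p under 0.05, a share of 26.2%. Over all 16064 genes tested this share was 18.7%, with 10.8% higher and 7.91% lower. The genes that rose were SLC1A1, SLC2A3 and the SNAT genes SLC38A7, SLC38A1, SLC38A4 and SLC38A10. Those that fell were SLC16A12, SLC7A2, SLC3A2, SLC7A5 and SLC1A5. The changes were modest, from 0.623 to 1.75 times the siCt mean, and SLC2A1, the highest glucose carrier, was not called. The median log2 fold change (siAXL over siCt) of the members was 0.13, against -0.0022 over all genes tested. The groups did not overlap in 28 of the 42 genes, 17 of them not called, and in 61.2% of all genes tested. With every gene of at least 1 read tested, 5 of the 11 calls remained, those of SLC1A1, SLC2A3, SLC38A7, SLC7A2 and SLC16A12. With 2 libraries against 2, a permutation of labels cannot give a two-sided p under 0.333, so that these adjusted p-values depend on an estimate of spread drawn from all genes.

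The counts of members can be read against all genes under other call rules too. With every gene of at least 1 read tested, 3 members were higher and 2 lower, against 2.79% and 1.25% of all genes (4.05% in all). This rule adds 10 members to the 42 tested. At an adjusted p under 0.01 there were 3 and 1, against 5.35% of all genes in either direction. DESeq2 called 5 and 5, against 11.5% and 8.57% (20.1% in all), and gave some of the 42, such as SLC16A1, no adjusted p. Scaling by the sum of reads gave 5 and 5, against 9.56% and 10.9% (20.4% in all). With a replicate block there were 13 and 7, against 23.3% and 22.2% (45.5% in all). Without siCt 2, siAXL 1 or siAXL 2, not all of the 11 calls were kept, and fewer of all genes were called as well.

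**Figure D2:**
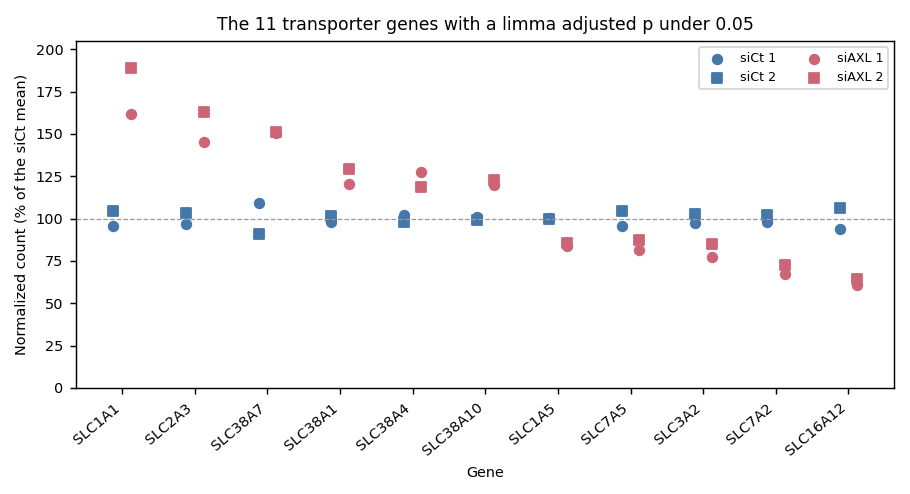
Normalized counts of the 11 called transporter genes, as a percentage of the siCt mean, in each of the 4 libraries (blue siCt, red siAXL; circles replicate 1, squares replicate 2). In each gene both red points lie on 1 side of both blue points, from 175% of the siCt mean for SLC1A1 to 62.3% for SLC16A12, taken over the siAXL means.

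Among the glucose transporters, SLC2A3 was the gene that rose. It encodes GLUT3, a carrier of high glucose affinity known from neurons. SLC2A3 (ENSG00000059804) was at 1236 and 1313 normalized counts in siCt and at 1848 and 2079 in siAXL. Both siAXL libraries were higher, with means of 1275 ± 54.6 and 1964 ± 163 (SD, n = 2 in each), a 1.54-fold difference. The log2 fold change was 0.62 (SE 0.0787, limma adjusted p = 0.00413), with values from 0.54 to 0.71 when 1 library was left out. SLC2A1 (ENSG00000117394) was at 30704 and 30539 in siCt and at 30101 and 31022 in siAXL, and the groups overlapped. Its log2 fold change was -0.0030 (95% interval -0.13 to 0.13, adjusted p = 0.978), and the sign turned under other scalings. SLC2A3 went from 2.73% and 2.92% of the SLC2A sum in siCt to 4.05% and 4.44% in siAXL, while the sum itself stayed between 170 and 174 RPKM in all libraries.

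SLC2A3 shares sequence with a close copy. Of the 50-base words of its transcript, 23.0% also occur in SLC2A14, so that reads could be split between these genes or lost. SLC2A14 had a mean of 8.25 reads per library. SLC2A10, which encodes GLUT10, had few reads (52.7 and 33.6 normalized counts in siCt, 74.8 and 72.7 in siAXL). Its log2 fold change of 0.79 did not pass the test (limma adjusted p = 0.0668). The estimate was 1.11 without siCt 1, 0.48 without siCt 2, 0.77 without siAXL 1 and 0.81 without siAXL 2. The other 8 SLC2A genes tested had log2 fold changes between -0.038 and 0.55, and none was called.

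In the lactate carrier family, the main member SLC16A3 did not pass the test. SLC16A3 (ENSG00000141526) was at 22785 and 22863 normalized counts in siCt and at 25297 and 24633 in siAXL. Both siAXL values were higher, by 1.09-fold, with a log2 fold change of 0.13 (SE 0.0540, 95% interval 0.0018 to 0.26, limma adjusted p = 0.142). Its exons overlap those of CSNK1D on the opposite strand over 482 bases, and CSNK1D had 8536 reads per library. SLC16A1 (ENSG00000155380) had 18.2 and 24.9 normalized counts in siCt and 35.0 and 27.5 in siAXL, a difference that did not pass the test (log2 fold change 0.52, adjusted p = 0.247).

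The SLC16A gene that fell was SLC16A12, which encodes MCT12, a carrier of creatine. SLC16A12 (ENSG00000152779) was at 252 and 287 normalized counts in siCt and at 163 and 173 in siAXL. Its siAXL mean was 62.3% of the siCt mean, with means of 168 ± 6.91 against 270 ± 24.7 (SD, n = 2 in each) and a log2 fold change of -0.68 (SE 0.123, limma adjusted p = 0.0130). SLC16A10, the aromatic amino acid carrier TAT1, had a similar estimate at a much lower level (-0.63, adjusted p = 0.119). The remaining 7 SLC16A genes tested lay between -0.17 and 0.52. None of them passed the test.

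**Figure D3:**
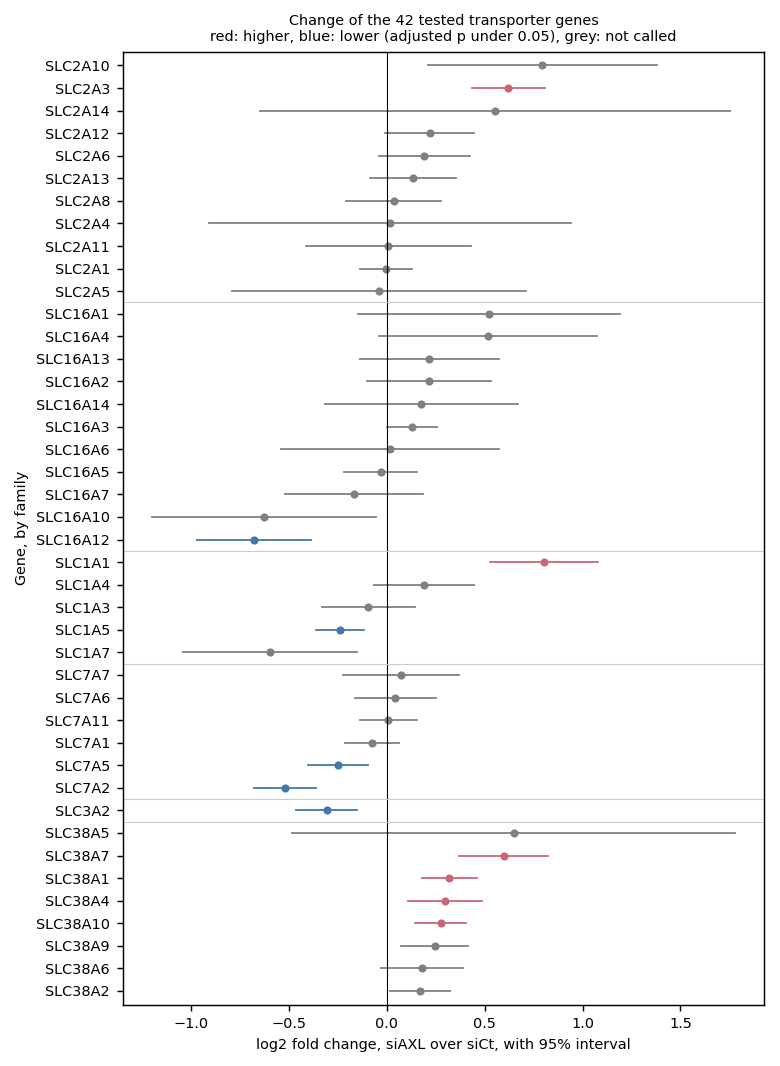
Log2 fold change (siAXL over siCt) of the 42 tested transporter genes with its 95% interval from limma, which is not adjusted for the number of genes, by family. Red genes were called higher, blue genes called lower and grey genes not called; all 8 SLC38A points lie above 0.

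The members of the leucine and glutamine exchange route were lower together. SLC3A2 (ENSG00000168003), the heavy chain that carries its light chains to the plasma membrane, was at 5382 and 5671 normalized counts in siCt and at 4267 and 4679 in siAXL. SLC7A5 (ENSG00000103257), its light chain in LAT1, was at 9318 and 10125 in siCt and at 7898 and 8466 in siAXL. SLC1A5 (ENSG00000105281), the glutamine exchanger ASCT2, was at 6640.3 and 6570.4 in siCt and at 5521 and 5669 in siAXL. In all 3 genes both siAXL libraries were below both siCt libraries, and the siAXL means were 80.9%, 84.2% and 84.7% of the siCt means.

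The log2 fold change was -0.31 for SLC3A2 (SE 0.0658, limma adjusted p = 0.0221), -0.25 for SLC7A5 (SE 0.0656, adjusted p = 0.0407) and -0.24 for SLC1A5 (SE 0.0524, adjusted p = 0.0231). These calls were close to the threshold. SLC7A5 was not called without siCt 2 (adjusted p = 0.152), without siAXL 1 (0.205) or without siAXL 2 (0.0631). SLC1A5 was not called without siAXL 1 (0.134) or siAXL 2 (0.0782), and SLC3A2 not without siAXL 1 (0.117), although the sign held in each case. Within a library, SLC7A5 had 1.73 and 1.79 normalized counts per count of SLC3A2 in siCt and 1.85 and 1.81 in siAXL, while SLC1A5 per SLC7A5 ran from 0.649 to 0.713 with overlapping groups.

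The other light chains tested were not called, and their difference from SLC7A5 was not tested. SLC7A11 (ENSG00000151012), the cystine carrier xCT, was at 2716 and 2702 normalized counts in siCt and at 2624 and 2831 in siAXL, and the groups overlapped. Its log2 fold change was 0.0089 (95% interval -0.14 to 0.16, limma adjusted p = 0.937). Per count of SLC3A2 there were thus 0.505 and 0.476 counts of SLC7A11 in siCt and 0.615 and 0.605 in siAXL. The light chains SLC7A6 and SLC7A7, which exchange cationic for neutral amino acids, had log2 fold changes of 0.044 (adjusted p = 0.774) and 0.074 (adjusted p = 0.725). SLC7A6 shares 3371 exon bases with SLC7A6OS on the opposite strand.

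Among the cationic amino acid transporters, which bring in arginine and lysine without a heavy chain, SLC7A2 fell and SLC7A1 did not pass the test. SLC7A2 (ENSG00000003989), which encodes CAT2, was at 2394 and 2508 normalized counts in siCt and at 1644 and 1776 in siAXL. The siAXL libraries were both lower, at 69.8% of the siCt mean (1710 ± 92.8 against 2451 ± 80.6, SD, n = 2 in each). The log2 fold change was -0.52 (SE 0.0669, limma adjusted p = 0.00433), from -0.58 to -0.46 with each library left out. SLC7A1 (ENSG00000139514), which encodes CAT1, was at 8645 and 8851 in siCt and at 7996 and 8624 in siAXL, a log2 fold change of -0.075 (95% interval -0.21 to 0.065, adjusted p = 0.424).

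SLC1A1, the neuronal and epithelial glutamate carrier EAAT3, which also takes up cysteine, had the largest rise of all members called. SLC1A1 (ENSG00000106688) was at 244 and 267 normalized counts in siCt and at 412 and 481 in siAXL. The siAXL libraries stood well above both siCt libraries, by 1.75-fold, with means of 255 ± 16.3 and 447 ± 49.3 (SD, n = 2 in each). The log2 fold change was 0.80 (SE 0.117, limma adjusted p = 0.00634). SLC1A1 remained a small part of its family, at 2.83% and 3.12% of the SLC1A sum in siCt and 5.54% and 6.27% in siAXL. SLC1A3, the glial glutamate carrier EAAT1, was at 302 in both siCt libraries and at 278 and 289 in siAXL (log2 fold change -0.093, adjusted p = 0.567). SLC1A4, the neutral carrier ASCT1 (0.19, adjusted p = 0.270) and SLC1A7, the retinal carrier EAAT5 (-0.60, adjusted p = 0.0695), the latter at 44.2 to 74.8 normalized counts, did not pass the test.

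In the SLC38A family, 4 of the 8 tested genes were higher and none was lower, where 10.8% of all genes tested were higher and 7.91% lower. The median log2 fold change of the family was 0.29, against -0.0022 over all genes tested. SLC38A1 (ENSG00000111371), a glutamine importer of the plasma membrane (SNAT1), was at 14281 and 14794 normalized counts in siCt and at 17524 and 18782 in siAXL. SLC38A7 (ENSG00000103042), a lysosomal glutamine exporter (SNAT7), was at 893 and 747 in siCt and at 1233 and 1238 in siAXL. SLC38A10 (ENSG00000157637) was at 2468 and 2434 in siCt and at 2929 and 3002 in siAXL. In each of them, and in SLC38A4 (ENSG00000139209; 688 and 661 in siCt, 859.5 and 799 in siAXL), both siAXL libraries were above both siCt libraries.

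SLC38A7 rose by 0.60 on the log2 scale (SE 0.0958, limma adjusted p = 0.00866), or 1.51-fold. SLC38A1 rose by 0.32 (SE 0.0597, adjusted p = 0.0140), SLC38A4 by 0.30 (SE 0.0795, adjusted p = 0.0420) and SLC38A10 by 0.27 (SE 0.0560, adjusted p = 0.0185). The call of SLC38A7 held with each library left out. SLC38A1 was not called without siAXL 2 (adjusted p = 0.0746), and SLC38A10 not without siAXL 1 (0.0730) or siAXL 2 (0.0965). SLC38A4 lost its call without siCt 2 (0.103), siAXL 1 (0.234) or siAXL 2 (0.0872), with DESeq2 (0.0828) and with scaling by the sum of reads (0.0599). SLC38A2 (ENSG00000134294), the amino acid-regulated SNAT2 and the highest of the family, was at 36270.0 and 37014 in siCt and at 43055 and 39431 in siAXL. It did not pass the test (log2 fold change 0.17, 95% interval 0.015 to 0.32, adjusted p = 0.117). SLC38A9, an arginine sensor of the lysosome, was close to the threshold (0.25, adjusted p = 0.0569). SLC38A6 (0.18) and SLC38A5 (0.65, at 4.79 to 14.7 normalized counts) were not called. The summed level of the SLC38A genes was 183 and 185 RPKM in siCt and 215 and 203 in siAXL.

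**Figure D4:**
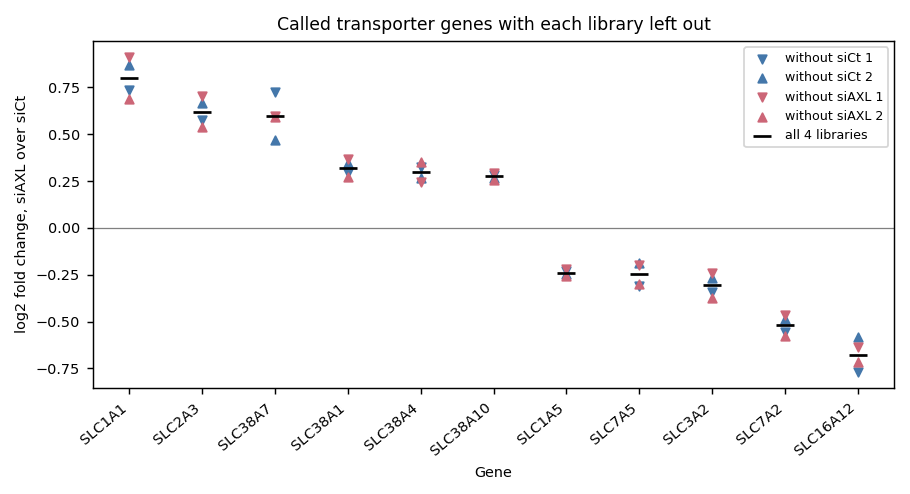
Log2 fold change (siAXL over siCt) of the 11 called transporter genes with all 4 libraries (black dash) and with each library left out (blue triangles, a siCt library; red triangles, a siAXL library). Every triangle stays on the side of 0 of its dash; SLC38A7 moves most with the siCt libraries, from 0.47 to 0.73.

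Promoter sequence was available for 45 of the 59 members, as 71 windows of 300 bases, 250 before and 50 after a RefSeq start (GRCh38.p14). Because the members of the exchange route were lower together, their windows were searched on both strands for the letters TGATGNAA, the core of an amino acid response element, and for the E-box CACGTG. TGATGNAA was found in 7 of the 71 windows (9.86%, against 3.62% of all 35116 windows) and CACGTG in 10 (14.1%, against 7.26%). The antioxidant letters TGACNNNGC were in 8 windows (11.3%, against 13.3%) and the hypoxia core ACGTG, which is also part of every CACGTG, in 21 (29.6%, against 21.4%). Below are the only window of SLC7A5, 1 of 3 of SLC3A2, 1 of 3 of SLC1A5, and 1 of 2 of SLC38A1, a gene that rose. For genes with several starts, the first window holding either of the first 2 motifs is shown, and which start these cells used is not known. Sequences run 5′ to 3′ on the strand of the gene, and capitals mark TGATGNAA or CACGTG on either strand.
SLC7A5, chr16:87869458-87869757, minus strand: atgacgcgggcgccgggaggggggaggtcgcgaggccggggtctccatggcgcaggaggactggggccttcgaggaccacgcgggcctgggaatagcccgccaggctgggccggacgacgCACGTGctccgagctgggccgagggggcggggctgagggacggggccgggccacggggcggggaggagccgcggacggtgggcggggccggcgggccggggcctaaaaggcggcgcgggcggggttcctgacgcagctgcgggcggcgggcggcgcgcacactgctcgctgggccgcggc
SLC3A2, chr11:62881449-62881748, plus strand: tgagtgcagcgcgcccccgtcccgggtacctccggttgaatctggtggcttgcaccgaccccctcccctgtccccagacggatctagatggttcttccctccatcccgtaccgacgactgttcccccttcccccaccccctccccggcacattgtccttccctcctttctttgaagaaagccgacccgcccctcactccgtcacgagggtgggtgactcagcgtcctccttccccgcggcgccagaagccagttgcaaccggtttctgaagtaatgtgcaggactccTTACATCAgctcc
SLC1A5, chr19:46787244-46787543, minus strand: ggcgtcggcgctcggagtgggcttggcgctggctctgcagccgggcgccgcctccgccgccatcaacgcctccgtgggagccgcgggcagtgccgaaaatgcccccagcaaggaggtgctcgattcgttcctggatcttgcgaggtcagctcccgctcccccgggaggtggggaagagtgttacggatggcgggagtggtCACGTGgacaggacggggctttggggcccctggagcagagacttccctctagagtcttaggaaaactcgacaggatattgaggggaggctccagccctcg
SLC38A1, chr12:46266467-46266766, minus strand: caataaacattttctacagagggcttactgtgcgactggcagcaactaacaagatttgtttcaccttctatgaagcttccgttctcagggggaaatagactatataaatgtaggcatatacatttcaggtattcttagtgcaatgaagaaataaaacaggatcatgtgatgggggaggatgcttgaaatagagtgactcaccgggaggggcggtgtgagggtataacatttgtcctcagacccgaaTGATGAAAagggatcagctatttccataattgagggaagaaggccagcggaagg

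Counted from the start of the window shown, the E-box of SLC7A5 begins at position -130 and that of SLC1A5 at -50. Only 1 of the 3 windows of SLC1A5 held CACGTG. The start of that window may lie within the gene, which was not examined, so that this match may not be in a promoter. The TGATGNAA match of SLC3A2 begins at position 37, on the other strand, and that of SLC38A1 at -4. Among the members with a window, the letters did not sort the genes by direction. The called genes SLC2A3 and SLC7A2 had no window. TGATGNAA was present in windows of SLC3A2 and SLC1A5, which fell, of SLC38A1, which rose, and of SLC7A1, SLC1A3, SLC1A4 and SLC2A5, which were not called. CACGTG was present in SLC7A5 and SLC1A5, which fell, and in SLC38A7, which rose. It was also present in 4 tested members that were not called and in 3 that were not tested. A match is a description of the sequence and shows no binding.

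A 7-base word in 3′ UTRs, CACATCA, moved with the direction of change in these libraries. It was chosen with that known, so that neither the values over all genes nor those of the members, which are among them, test it. Over all genes tested with a 3′ UTR, the median log2 fold change was 0.12 in 1252 genes with the word and -0.0091 in 11579 without it. Of the 1252 genes, 355 were called higher and 63 lower, and of the 11579, 1293 were called higher and 1137 lower. Among the tested members with a 3′ UTR, 4 held it, with a median of 0.32, and of these SLC38A7 was called. Their log2 fold changes were 0.79 (SLC2A10), 0.60 (SLC38A7), 0.044 (SLC7A6) and 0.0089 (SLC7A11). The 37 tested members without the word had a median of 0.13, with 5 called higher and 5 lower. SLC7A14, which was not tested, also held the word. The part of the word in the rise of SLC38A7 was not tested.

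Genes that act beside these transporters were taken from 4 lists. Of 71 genes, 64 were tested, and 10 rose and 7 fell, a share of 26.6% against 18.7% over all genes. The lists were chosen with earlier results of these data known, so that these shares do not test for an excess. Among 15 partners and trafficking factors, 2 rose and 2 fell. BSG, the chaperone that brings MCT1 and MCT4 to the membrane, was at 23162 and 23479 normalized counts in siCt and at 27570.2 and 28734 in siAXL (log2 fold change 0.27, SE 0.0559, limma adjusted p = 0.0192), and its relative EMB rose by 0.42 (adjusted p = 0.0363). STOM, a membrane protein that binds GLUT1, fell from 875 and 1015 to 499 and 623 (-0.76, adjusted p = 0.00968), and NEDD4L, a ubiquitin ligase of transporters, fell by 0.22 (adjusted p = 0.0360). TXNIP, which promotes the internalization of GLUT1, was at 8803 and 11792 in siCt and at 12649 and 14496 in siAXL, and did not pass the test (0.41, adjusted p = 0.0749). The other heavy chain, SLC3A1, had at most 10.8 normalized counts. Its difference did not pass the test (adjusted p = 0.321).

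Of 23 other nutrient transporters, 18 were tested, with 3 higher and 2 lower. SLC25A22, a mitochondrial glutamate carrier, was at 1274 and 1143 normalized counts in siCt and at 2269.8 and 2329.8 in siAXL. This 1.90-fold rise (log2 fold change 0.93, SE 0.0734, limma adjusted p = 0.00145) was larger in size than that of every member called. SLC36A4 (0.29, adjusted p = 0.0145) and SLC15A4 (0.29, adjusted p = 0.0220) also rose. SLC43A3, a nucleobase carrier (-0.34, adjusted p = 0.00778), and SLC25A13, the mitochondrial aspartate-glutamate carrier citrin (-0.27, adjusted p = 0.0337), fell.

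Of 22 enzymes that use the imported nutrients, 20 were tested, with 3 higher and 2 lower. Both subunits of the ligase that joins glutamate to cysteine in glutathione synthesis fell, the catalytic GCLC from 3045 and 3260.3 to 2016 and 2055 normalized counts (log2 fold change -0.63, SE 0.0617, limma adjusted p = 0.00222) and the modifier GCLM by 0.29 (adjusted p = 0.0235). GLUL, which makes glutamine, rose by 0.36 (adjusted p = 0.00605), ARG2, which splits arginine, by 0.52 (adjusted p = 0.0192) and LDHA, which makes lactate, by 0.24 (adjusted p = 0.0471). Of 11 transcription regulators, all tested, TFE3 (0.24, adjusted p = 0.0331) and MLXIP (0.19, adjusted p = 0.0493) rose and MLX (-0.21, adjusted p = 0.0420) fell. Of these genes DESeq2 called only TFE3 (DESeq2 adjusted p = 0.0198), and not MLXIP (0.0642) or MLX (0.0556). With every gene of at least 1 read tested, no regulator was called. ATF4, the activator that binds amino acid response elements, was not called (-0.065, adjusted p = 0.524). Without siAXL 1, siAXL 2 or siCt 2, fewer genes of these lists were called, and fewer of all genes as well. Such a fit leaves 1 library in a group. STOM, SLC43A3, SLC25A22, GLUL and GCLC were called with each library left out.

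**Figure D5:**
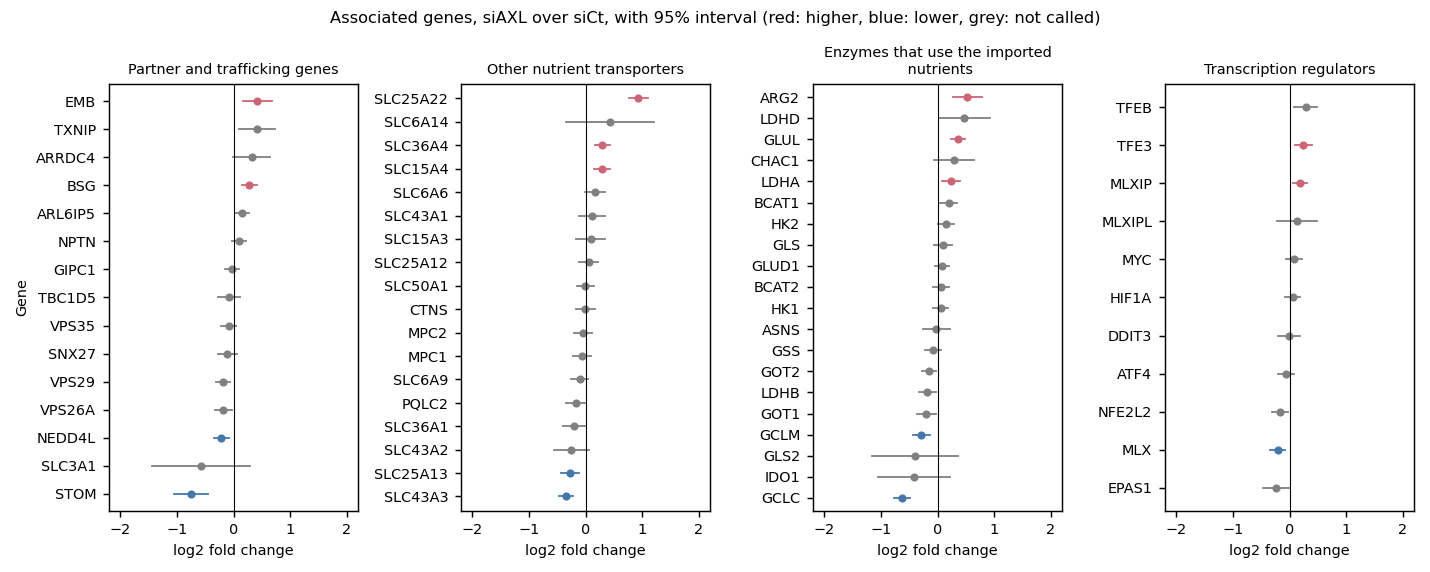
Log2 fold change (siAXL over siCt) with its 95% interval from limma for the 64 tested genes of the 4 lists, 1 panel a list. Red genes were called higher (10) and blue genes called lower (7); SLC25A22 lies farthest to the right and STOM farthest to the left.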

How the data were processed

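Total RNA of 2 siCt and 2 siAXL libraries was sequenced on an Illumina HiSeq instrument. The submitters' processing notes list CASAVA 1.8, TopHat2 2.0.10, HTSeq 0.5.3, DESeq2 1.4.5 and the build GRCh37, and the strand setting is not given in the sources used here. The authors deposited normalized counts, a signal in which the reads of each gene are divided by a library-wide DESeq2 size factor. Their columns of fold changes, standard errors and p-values were not used. Every value was a whole multiple of the value of 1 read (100% within 0.001), so that reads were recovered. Other per-sample columns numbered 0.

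Genes passing edgeR's filterByExpr (16064) were tested with limma 3.58.1 in R 4.3.3 on log2(normalized count + 1), with an intensity trend and Benjamini-Hochberg adjustment over all of them; this scale understates changes of low genes. Calls were made at an adjusted p under 0.05. The fit was also run on simulated counts with 200 genes changed, fewer than were called here. The simulated libraries were drawn independently, so that the run does not check the calls made on the real ones. Alternatives were edgeR 4.0.16 and DESeq2 1.42.0 on the recovered reads, other scalings, pseudocounts, filters, a replicate block and leaving out each library. Replicates differed by more than sampling noise (chi-square per gene 21.6 in siCt, 19.6 in siAXL). The named members are the called ones, 12 textbook carriers, and in each family the highest gene and the largest change. Members and lists were chosen with earlier results of these data known. Exon lengths, overlaps and UTRs come from GENCODE 29 by Ensembl identifier and promoters from RefSeq by symbol, on GRCh38, not the build of the files; no coordinates of the files are given.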

Additional observations from a re-analysis of the deposited data

How the results depend on the processing

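Depth was similar in all libraries, and the precision is set by 2 libraries a group. Over 13 alternatives, all 11 called transporter genes kept their sign. The counts of 6 genes higher and 5 lower went to 3 and 2 when every gene with at least 1 read was tested (1097 of all genes called, in place of 3006, and 5 of the associated lists, in place of 17) with 27108 genes in the adjustment, in place of 16064. They went to 3 and 1 at an adjusted p under 0.01 (859 of all genes). With each library left out, the counts ran from 3 to 8 higher and from 2 to 5 lower, the calls over all genes from 1301 to 3900, those of the lists from 5 to 19, and the median log2 fold change of the members from 0.12 to 0.15. This median was 0.10 with scaling by the sum of reads and 0.059 over all members with at least 1 read. Scaling by the sum of reads changed the split over all genes from 1735 higher and 1271 lower to 1536 and 1745, and that of the members to 5 and 5. The log2 fold change of SLC2A1 turned to 0.0039 with TMM scaling, 0.0018 with upper quartile scaling, 0.0062 with edgeR, and lay at -0.025 to 0.019 in the fits on 3 libraries. That of SLC7A11 went to -0.020 with scaling by the sum of reads and from -0.046 (without siAXL 2) to 0.064 with 1 library left out. For AXL it ran from -2.07 to -1.79.

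The replicate numbers are shared by the groups, but nothing in the labels pairs them, and the differences between replicates correlated across genes at 0.27 between the groups. With a replicate block, 13 members were higher and 7 lower, 39 genes of the lists were called and 7310 genes in all. All 11 calls remained. The cause was not tested.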
